A study of Mus musculus with 96 samples.

Results

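The forebrains of 8 adult male C57BL/6J mice were compared 3 h after a single injection. 4 mice had received clozapine (mice BB685, BB701, BB702 and BB703) and 4 had received saline vehicle (mice BB686, BB687, BB707 and BB708). These 8 samples are a part of 96 array profiles, in which forebrain, hindbrain and whole brain of C57BL/6J and NOD/ShiLtJ mice under either treatment were hybridized to Affymetrix Mouse Gene 1.1ST arrays and again to 1.0ST arrays. The members were taken by their sample titles, and the 1.1ST values are the main measurement. The 1.0ST values come from the same RNA and repeat the measurement, not the experiment. By its deviations from the mean of the 8 forebrains over all transcripts, the 1.1ST array correlated best with the 1.0ST array of its own mouse in 6 of 8 mice. Clozapine mouse BB702 correlated at -0.0495 with its own 1.0ST array and best with that of vehicle mouse BB687 (0.217), and BB687 at 0.188 with its own and best with that of vehicle mouse BB707 (0.274). Over 12610 transcripts with a mean level above 7 it was 7 of 8, BB702 matched its own array at 0.291, and BB687 stood at 0.419 with its own and 0.445 with that of BB707. Over the 1000 transcripts with the largest variance it was again 6 of 8. There BB702 stood at 0.206 with its own and 0.231 with that of BB687, and BB687 at 0.537 with its own and 0.566 with that of BB707. On 1.1ST, leaving out BB702 gave 931 transcripts higher and 1171 lower at an unadjusted p below 0.05, and leaving out BB687 gave 611 and 1145. Clozapine was given intraperitoneally at 4 mg/kg to singly housed mice aged 14 weeks. Forebrain is what stayed of 1 hemisphere, olfactory bulb included, after the cerebellum was cut off and the hindbrain was taken out with forceps, and how much of the diencephalon stayed with it was not recorded per mouse. It is a bulk sample, in which more cells of a type and more RNA per cell cannot be told apart.

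Clozapine is the prototype of the second-generation antipsychotics. It binds many receptors with moderate to high affinity, among them serotonin, dopamine, histamine, muscarinic and adrenergic receptors, and its block of the D2 dopamine receptor is weaker than that of older antipsychotics. D2 receptors are densest in the striatum, on the medium spiny neurons of the indirect pathway. In rodents an acute dose is sedating and is known to release corticosterone, the glucocorticoid that switches genes through the nuclear glucocorticoid receptor.

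Values are log2 expression levels per transcript cluster, the set of probes that the array assigns to 1 transcript, and each difference is clozapine minus vehicle, so that 1 unit is a factor of 2. The dissection was checked with marker lists, of which brainstem neuron genes summed to 1148 to 1664 on the linear scale in C57BL/6J forebrain and 7351 to 12450 in hindbrain, and cortical projection neuron genes to 18350 to 22040 in forebrain and 11440 to 14280 in hindbrain. Dopamine signalling genes of striatal neurons overlapped, with 18770 to 29710 in forebrain and 12250 to 21310 in hindbrain. Cerebellar genes summed to 2928 to 3640 in forebrain and 4109 to 8806 in hindbrain. Across the 8 forebrains the array medians lay between 6.47 and 6.52 on 1.1ST and between 8.14 and 8.18 on 1.0ST. In clozapine mice the time of death was 117.5 ± 45.0 min after noon, against 150.0 ± 44.0 min in vehicle mice (SD, n = 4 each; p = 0.343, two-sided exact permutation test over 70 splits). Body weight was 25.4 ± 0.670 g in clozapine mice and 24.4 ± 1.14 g in vehicle mice (SD, n = 4 each; p = 0.286, same exact test). The standard error of a difference had a median of 0.0937, with a 5th to 95th percentile range of 0.0597 to 0.164. At the median standard error a 95% interval reached 0.189 to either side, a factor of 1.14.

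No transcript passed the threshold of the study. With limma and a false discovery rate (FDR) computed by the formula of the methods, 0 of 28310 transcripts were called higher (0%) and 0 were called lower (0%) at an FDR below 0.05, and the lowest FDR was 0.349. Benjamini-Hochberg adjustment of the same limma p-values and the 1.0ST arrays also gave 0, with a lowest FDR of 0.594 on 1.0ST. At an unadjusted p below 0.05, 686 transcripts were higher (2.42%) and 976 were lower (3.45%), while 1.0ST gave 435 higher (1.54%) and 314 lower (1.11%). Under both formats at once, 195 transcripts were higher (0.689%) and 66 were lower (0.233%). The 4 clozapine mice lay wholly above the 4 vehicle mice for 423 transcripts (1.49%) and wholly below for 631 (2.23%). The differences were small, with 26 transcripts past 1.5-fold higher (0.0918%) and 5 past 1.5-fold lower (0.0177%). The genes named from here on are therefore those with the smallest p or the largest difference, and none of them passed the test in this fit.

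The direction of the small differences varied with level. Among 8852 transcripts with a mean level below 5, 564 had an unadjusted p below 0.05 on the lower side, of which 23 did so on 1.0ST too. Among 6885 transcripts with a mean level of 7 to 9, 224 were on the higher side at that p, of which 92 did so on 1.0ST too. All 15 genes with the smallest p on the higher side had an FDR between 0.349 and 0.545, and 14 of them had a positive difference on 1.0ST, with a median difference of 0.49 on 1.1ST and 0.24 on 1.0ST. Of the 15 on the lower side, 8 had a negative difference on 1.0ST, and their median difference was -0.37 on 1.1ST and -0.04 on 1.0ST. Of these lower genes 10 had a mean level below 5, against 3 of the higher genes.

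**Figure D1:**
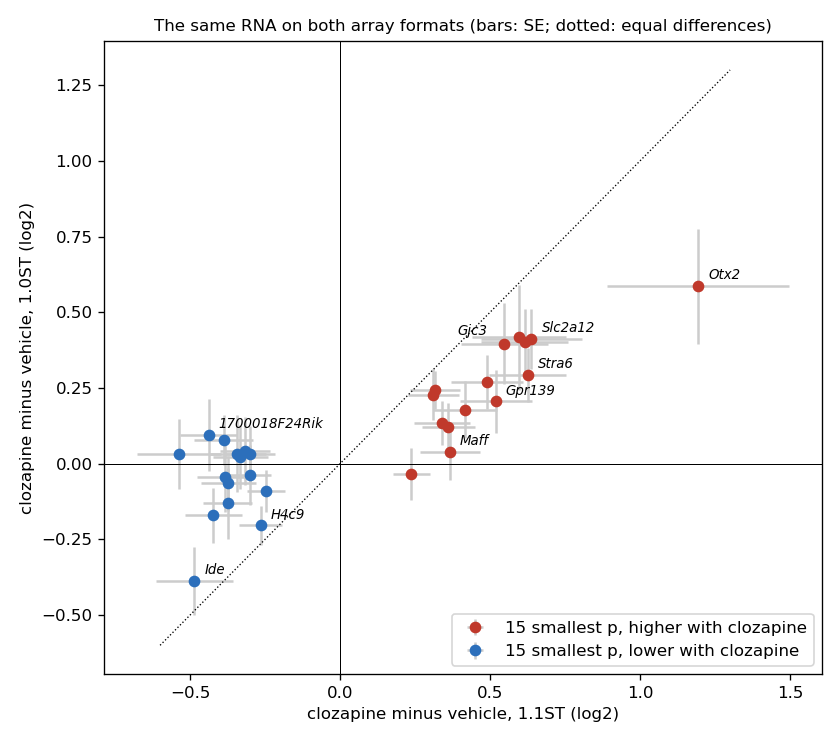
Difference between clozapine and vehicle (log2) on 1.1ST arrays, x axis, and on 1.0ST arrays, y axis, for the 15 genes with the smallest p in each direction. Points are genes, bars are standard errors and the dotted line marks equal differences. The genes higher with clozapine keep a positive value on 1.0ST except Oosp1, and most of those lower with clozapine lie near 0 there, apart from Ide and H4c9.

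The gene with the smallest p was Stra6, the cell-surface receptor through which retinol bound to its carrier protein enters cells. Stra6 read 8.04, 7.48, 7.60 and 7.70 in clozapine mice BB685, BB701, BB702 and BB703, against 6.97, 7.28, 7.08 and 6.98 in vehicle mice BB686, BB687, BB707 and BB708. The groups did not overlap, and the difference was 0.62 ± 0.13 (SE) (limma, FDR = 0.349). On 1.0ST the difference was 0.29 ± 0.09 and the groups overlapped. Without clozapine mouse BB701 Stra6 was the 1 transcript called higher (FDR = 0.0309).

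Gpr139 encodes an orphan G protein-coupled receptor of the habenula and striatum. Gpr139 read 7.63, 7.54, 7.49 and 7.80 in clozapine mice, against 7.14, 6.97, 7.24 and 7.04 in vehicle mice in the same order of mice. No clozapine mouse came within the vehicle range, with a difference of 0.52 ± 0.12 (limma, FDR = 0.477), and 1.0ST gave 0.21 ± 0.10. With 5 surrogate variables in the model, built by the steps of the methods, 4 transcripts were called higher and 1 lower. These were Gpr139 (0.60, FDR = 0.00115), Otx2 (1.21), Stra6 (0.52) and a cluster with no gene symbol (0.56), and Odf3 on the lower side (-0.32), the last 4 at an FDR of 0.0484. Odf3, which encodes a sperm tail protein, had a mean level of 4.25 in clozapine mice and 4.55 in vehicle mice, and a difference of 0.03 on 1.0ST.

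Pnpla2 encodes adipose triglyceride lipase, the enzyme that starts the breakdown of stored triglyceride. Pnpla2 read 8.39, 7.79, 7.43 and 7.69 in clozapine mice, against 7.03, 7.22, 7.27 and 7.31 in vehicle mice. Mouse BB685 was the highest, and the groups did not overlap on 1.1ST or on 1.0ST. The difference was 0.61 ± 0.15 (limma, FDR = 0.477) and 0.40 ± 0.11 on 1.0ST.

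Slc2a12, a facilitative glucose transporter, read 7.86, 7.99, 7.93 and 8.15 in clozapine mice, against 7.53, 7.11, 7.45 and 7.30 in vehicle mice. The difference was 0.64 ± 0.17 on 1.1ST and 0.41 ± 0.10 on 1.0ST, again without overlap on either. Tgfa, a ligand of the epidermal growth factor receptor, was higher by 0.36 ± 0.09 on 1.1ST and by 0.12 ± 0.08 on 1.0ST. Other genes among the 15 with the smallest p on the higher side were Cd72 (0.42), Oosp1 (0.24), Pld5 (0.60), Gjc3 (0.55), Csrp2 (0.32), Tgfbr3 (0.31), Maff (0.37) and Scube3 (0.34). Maff, a small Maf transcription factor, and Oosp1, an oocyte-secreted protein, had differences of 0.04 and -0.03 on 1.0ST.

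On the lower side Ide and H4c9 had like values on both formats. Ide, the insulin-degrading enzyme, read 9.57, 9.16, 9.22 and 9.28 in clozapine mice, against 9.87, 9.86, 10.08 and 9.36 in vehicle mice. Vehicle mouse BB708 lay inside the clozapine range, and the difference was -0.49 ± 0.13 (limma, FDR = 0.477), with -0.39 ± 0.11 on 1.0ST. Without that mouse, the vehicle mouse that overlapped, Ide was the 1 transcript called lower, at -0.63 (FDR = 0.00874). In hindbrain and whole brain of the same C57BL/6J mice Ide differed by -0.32 and -0.35, and in NOD/ShiLtJ forebrain by -0.11. Whether these mice differed in Ide apart from the treatment was not tested. H4c9, a replication-dependent histone H4 gene with many near-identical copies, read 5.53, 5.83, 5.84 and 5.55 in clozapine mice, against 6.02, 5.84, 5.99 and 5.96 in vehicle mice. The H4c9 groups did not overlap on either format, the closest pair being 5.84 in both groups after rounding, and the difference was -0.26 ± 0.07 (FDR = 0.545). Tdp1, which repairs DNA ends left by topoisomerase, was lower by 0.25 on 1.1ST with no overlap, and its 1.0ST difference was -0.09.

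The remaining 12 of the 15 genes on the lower side were 1700018F24Rik, Pzp, Fgr, Iqca1l, Gm8479, Igll1, Tex22, Dppa5a, Ankrd36, Muc13, Odf3 and Ffar1. 1700018F24Rik had the smallest p of these and read 4.36, 4.25, 4.24 and 4.34 in clozapine mice, against 4.66, 4.52, 4.82 and 4.94 in vehicle mice (limma, FDR = 0.349). On 1.0ST its difference was 0.09.

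**Figure D2:**
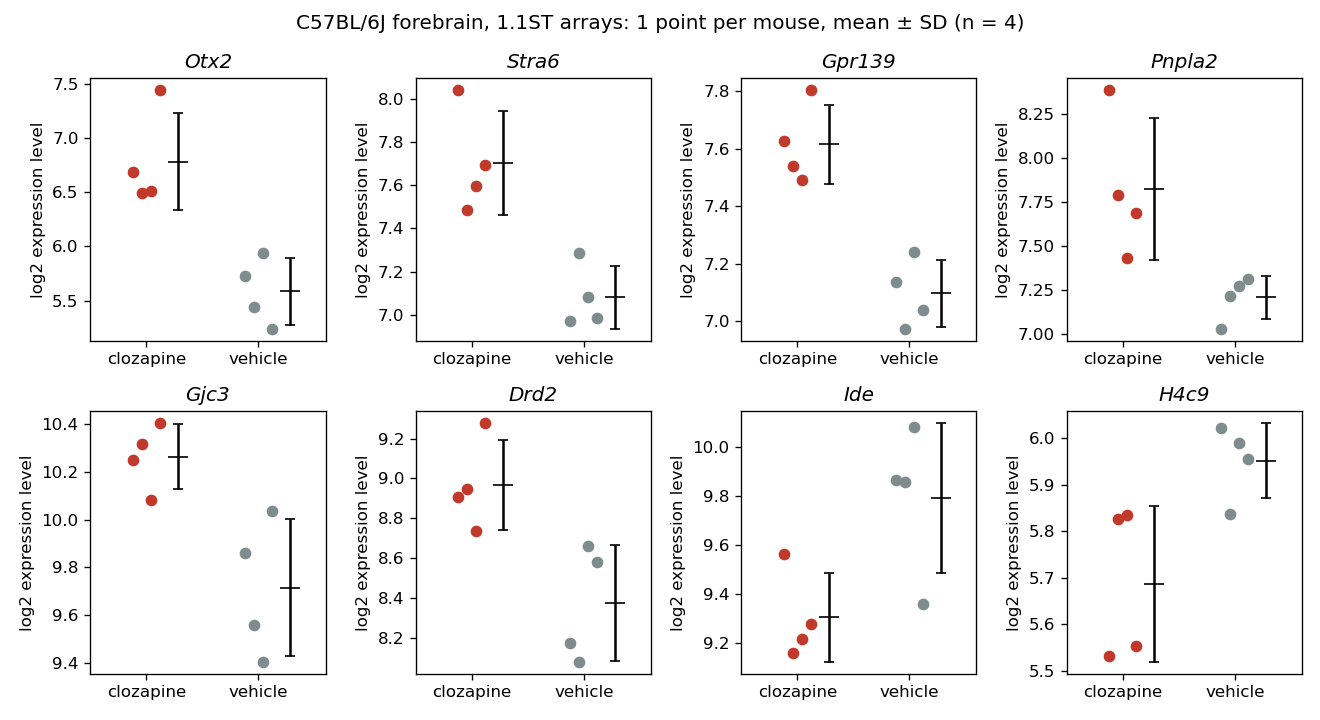
Log2 expression level on 1.1ST arrays for 8 genes in forebrain of the clozapine mice, left in each panel, and the vehicle mice, right, with 1 point per mouse and the mean ± SD beside it (n = 4). Otx2, Stra6, Gpr139, Pnpla2, Gjc3 and Drd2 show no overlap on the higher side and H4c9 none on the lower side, while 1 vehicle mouse for Ide lies among the clozapine mice.

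The largest differences among genes without overlap were also read. On the higher side they were Otx2 (1.19), Slc4a5 (0.88), Kcnj13 (0.86), Sostdc1 (0.82) and Lbp (0.73), the first 4 of which are genes of the choroid plexus. On the lower side they were Trdn (-1.10), Mir384 (-0.63), Cd1d1 (-0.53), Tra2a (-0.47) and 1700018F24Rik. The Trdn value belongs to 1 of 19 clusters of that gene, a muscle calcium-release protein, and its 1.0ST difference was -0.32 with overlapping groups. Tra2a, a splicing regulator, had 2 clusters, with -0.47 in one and -0.16 in the other.

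Mir384 is the precursor of a brain microRNA encoded on chromosome X, and the 5p strand is shown because it carries the seed of the miR-30 family. The cluster is annotated to the precursor gene, and the mature strands were not measured separately. In the RefSeq annotation of GRCm38.p6 the mature strands lie on the minus strand at chrX:105344332-105344354 and chrX:105344292-105344313, and the capitals mark the seed, bases 2 to 8.
mmu-miR-384-5p: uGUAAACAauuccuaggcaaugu
mmu-miR-384-3p: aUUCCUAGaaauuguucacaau
Within the mature strands of the annotation used here, the 5p seed is shared by 3 others, miR-30a-5p, miR-30c-5p and miR-30e-5p, and the 3p seed by 0. Mouse microRNAs missing from it were not searched, so these counts may be incomplete. Mir384 read 6.82, 7.14, 7.02 and 5.98 in clozapine mice, against 7.36, 7.36, 7.27 and 7.47 in vehicle mice. Mouse BB703 was the lowest, the difference was -0.63 ± 0.18 (limma, FDR = 0.596), and on 1.0ST it was -0.36 ± 0.24 with overlap.

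Genes were next grouped by lists of known function or cell type, written with earlier results of these data known. Of 18807 genes with 1 symbol, each read from its brightest cluster, 543 were higher (2.89%) and 500 were lower (2.66%) at an unadjusted p below 0.05, and 8704 had a difference above 0 (46.3%). The groups did not overlap for 331 genes on the higher side (1.76%) and 332 on the lower side (1.77%). On 1.0ST the counts at that p were 357 higher (1.9%) and 187 lower (0.994%). The median difference over all these genes was -0.01. In the lists, counts are at the same unadjusted p, and 0 members of any list passed the FDR threshold.

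The choroid plexus is the epithelium that secretes cerebrospinal fluid into the ventricles, and its genes had the largest median difference of the 32 lists. Of 16 measured genes of this list 9 were higher and 0 lower, 12 did not overlap between the groups and 16 had a difference above 0. The median was 0.57 on 1.1ST and 0.37 on 1.0ST. Otx2, the transcription factor that maintains this epithelium, read 6.69, 6.49, 6.51 and 7.44 in clozapine mice, against 5.73, 5.44, 5.94 and 5.24 in vehicle mice. The lowest clozapine mouse stood above the highest vehicle mouse, with a difference of 1.19 ± 0.30 (limma, FDR = 0.477), and 0.59 ± 0.19 on 1.0ST. Without clozapine mouse BB702 the median of the list was 0.56, and without vehicle mouse BB687 it was 0.51.

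Ion transport genes of the plexus followed. Kcnj13, its inward-rectifier potassium channel, read 9.59, 9.63, 9.44 and 9.82 in clozapine mice, against 9.20, 8.31, 8.84 and 8.69 in vehicle mice. Slc4a5, a sodium bicarbonate cotransporter of its apical membrane, read 6.39, 6.70, 6.26 and 6.39 in clozapine mice, against 5.87, 5.34, 5.35 and 5.67 in vehicle mice. Neither gene overlapped on 1.1ST or 1.0ST, and in vehicle mice BB686 was the highest for both. Sostdc1, a secreted Wnt and BMP inhibitor, differed by 0.82 ± 0.35, Clic6, a chloride channel protein, by 0.69, the tight junction gene Cldn2 by 0.48, Igf2 by 0.45, the coagulation factor F5 by 0.56 and the collagen gene Col8a1 by 0.32.

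Ttr, the transthyretin gene and the most abundant transcript of this epithelium, read 12.13, 12.29, 12.13 and 12.22 in clozapine mice, against 11.71, 11.20, 11.70 and 11.60 in vehicle mice. The Ttr groups did not overlap, and the difference of 0.64 had a standard error of 0.77 in the limma fit across all regions (FDR = 0.886). Folr1 (0.58), Kl (0.61), Kcne2 (0.36) and Cldn1 (0.39) had limma p between 0.0526 and 0.0899, and Igfbp2 (0.06) and Aqp1 (0.03) differed little. Summed on the linear scale, the 16 genes ranged from 6906 to 7844 in clozapine mice and from 3838 to 5458 in vehicle mice. How much plexus each dissected hemisphere carried was not recorded in the labels, and its part in these values was not tested. Without vehicle mouse BB687 4 of the 16 genes were higher, and without clozapine mouse BB703 5 were, with medians of 0.51 and 0.53.

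Oligodendrocytes wrap axons in myelin. Among the 20 oligodendrocyte genes on the array 9 were higher and 0 lower, 10 did not overlap, and the median was 0.21 on 1.1ST and 0.22 on 1.0ST. Gjc3, a connexin of myelinating glia, read 10.25, 10.32, 10.08 and 10.40 in clozapine mice, against 9.86, 9.56, 9.41 and 10.04 in vehicle mice. The gap between the groups was small, and the difference was 0.55 ± 0.14 (limma, FDR = 0.477), with 0.40 ± 0.13 on 1.0ST. Opalin, a protein of mature myelin sheaths, read 8.66, 8.55, 8.41 and 9.06 in clozapine mice, against 8.16, 8.23, 8.19 and 8.38 in vehicle mice. For the whole list the median level relative to the vehicle mean was highest in BB703 (0.36), the mouse with the lowest cortical projection neuron genes (-0.21). Olig2, the transcription factor of the lineage, read 7.95, 7.83, 7.62 and 8.06 in clozapine mice, against 7.48, 7.52, 7.39 and 7.55 in vehicle mice. Without BB702 the median of the list was 0.25, and without BB687 it was 0.21.

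Both of these genes separated the groups on 1.1ST, with a difference of 0.43 ± 0.16 for Opalin and 0.38 ± 0.14 for Olig2. Structural myelin genes differed less, with Mal at 0.25, Mobp at 0.25, Mog at 0.25 and Cldn11 at 0.19, and Fa2h, which makes the hydroxylated fatty acids of myelin lipids, at 0.37. Precursor genes stood near 0, with 0.05 for Pdgfra and -0.10 for Gpr17. Mouse BB703 had the highest summed level of the list, in a range of 15220 to 18290 in clozapine mice against 13580 to 14710 in vehicle mice, and without it 4 genes were higher, with a median of 0.16.

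Striatal genes of dopamine signalling were read next. Of 25 measured genes 5 were higher and 0 lower, 4 did not overlap and 23 had a difference above 0, with a median of 0.30 on 1.1ST and 0.26 on 1.0ST. Drd2, the D2 dopamine receptor and a target of clozapine itself, read 8.91, 8.95, 8.73 and 9.28 in clozapine mice, against 8.17, 8.08, 8.66 and 8.58 in vehicle mice. On 1.0ST Drd2 read 10.74, 10.78, 10.66 and 11.18 in clozapine mice, against 10.16, 10.14, 10.56 and 10.53 in vehicle mice. The groups did not overlap on either format, and the difference was 0.59 ± 0.18 (limma, FDR = 0.596) and 0.49 ± 0.16 on 1.0ST.

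Signalling genes of striatal neurons had values on the same side. Gnal, the G protein alpha subunit that couples striatal receptors to adenylyl cyclase, differed by 0.34, Adcy5, the adenylyl cyclase of the striatum, by 0.41, Rasgrp2, a calcium-regulated activator of Rap GTPases, by 0.34, and Rgs9, which ends D2 signalling, by 0.51, which missed the unadjusted threshold. The retinoic acid receptor Rarb differed by 0.42. Markers of the direct pathway had like values, with 0.38 for Drd1 and 0.28 for Tac1, and so had Penk of the indirect pathway (0.22). Only 5 of 25 members of the list passed the unadjusted threshold, so some of these genes besides Rgs9 missed it too. Mouse BB703 was the highest for Drd2, Gnal, Adcy5 and Rasgrp2. The summed level of the list ran from 22690 to 29710 in clozapine mice and from 18770 to 22790 in vehicle mice, so the groups overlapped. Without mouse BB703 1 gene of 25 was higher and the median was 0.15. Without clozapine mouse BB685 10 were, without BB702 8 were, and without vehicle mouse BB686 or BB687 3 and 2 were. BB703 was also the lowest mouse for cortical projection neuron genes, whose median level lay at -0.21 there relative to the vehicle mean (-0.19 on 1.0ST), against 0.67 for the striatal genes. The share of striatum in each dissected forebrain was not recorded in the labels, and its part in these values was not tested.

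Among 25 receptors that clozapine binds, Drd2 and the serotonin receptor Htr1b (0.34) were higher, and the histamine receptor Hrh2 (-0.22) and the serotonin receptor Htr2b (-0.23) were lower. Htr2b stood at a level of 4.00 in clozapine mice and 4.23 in vehicle mice. The serotonin receptor Htr2a, at which clozapine is a strong antagonist, had a difference of -0.08, and that of the muscarinic receptor Chrm1 was -0.03.

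Genes induced by glucocorticoids were read as a response list. Of 46 measured genes 13 were higher and 0 lower, 42 had a difference above 0 (91.3%) and 3 did not overlap, with a median of 0.17 on 1.1ST and 0.15 on 1.0ST. Among the 13, Pnpla2, Arrdc2, Map3k6 and Per1 had also been named for clozapine in earlier results of these data. The count is therefore no independent result. After Pnpla2 the members with the smallest p were Pdk4 (0.44), which holds back glucose oxidation, Xdh (0.46), the xanthine oxidoreductase, Arrdc2 (0.60) and Map3k6 (0.34). The values varied among the clozapine mice. Arrdc2 read 7.36, 6.32, 6.31 and 7.05 in clozapine mice, against 6.10, 6.01, 6.21 and 6.31 in vehicle mice. Ddit4, an inhibitor of mTOR signalling, read 8.38, 7.50, 7.53 and 8.80 in clozapine mice, against 7.35, 7.50, 7.68 and 7.63 in vehicle mice. Txnip, which binds thioredoxin and restrains glucose uptake, read 9.08, 8.09, 8.13 and 10.34 in clozapine mice, against 8.27, 8.07, 8.36 and 8.15 in vehicle mice. Without BB702 the median of the list was 0.21, and without BB687 it was 0.17.

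For these 3 genes mice BB685 and BB703 were above every vehicle mouse, and BB701 and BB702 lay inside the vehicle range or at its upper end. Dusp1, a phosphatase that switches off MAP kinases, read 9.96, 9.30, 9.84 and 10.90 in clozapine mice, against 9.59, 9.40, 9.13 and 9.56 in vehicle mice, with BB703 again the highest. Per1, the clock gene that glucocorticoids induce directly, read 9.03, 8.51, 8.48 and 8.78 in clozapine mice, against 8.14, 8.50, 8.41 and 8.34 in vehicle mice, with a difference of 0.35 ± 0.16. The summed level of the list was 29360 in BB685, 24720 in BB701, 22990 in BB702 and 28290 in BB703, against 22750 to 23140 in vehicle mice. BB685 died earliest of the 4 clozapine mice, 80 min after noon, and BB703 last, 180 min after noon. Without BB685 7 genes were higher, with a median of 0.12, and without vehicle mouse BB686 7 were. Fkbp5 (0.31), Tsc22d3 (0.17), Sgk1 (0.24), Nfkbia (0.25) and Zbtb16 (0.06), further textbook targets of the receptor, had limma p between 0.0854 and 0.76.

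**Figure D3:**
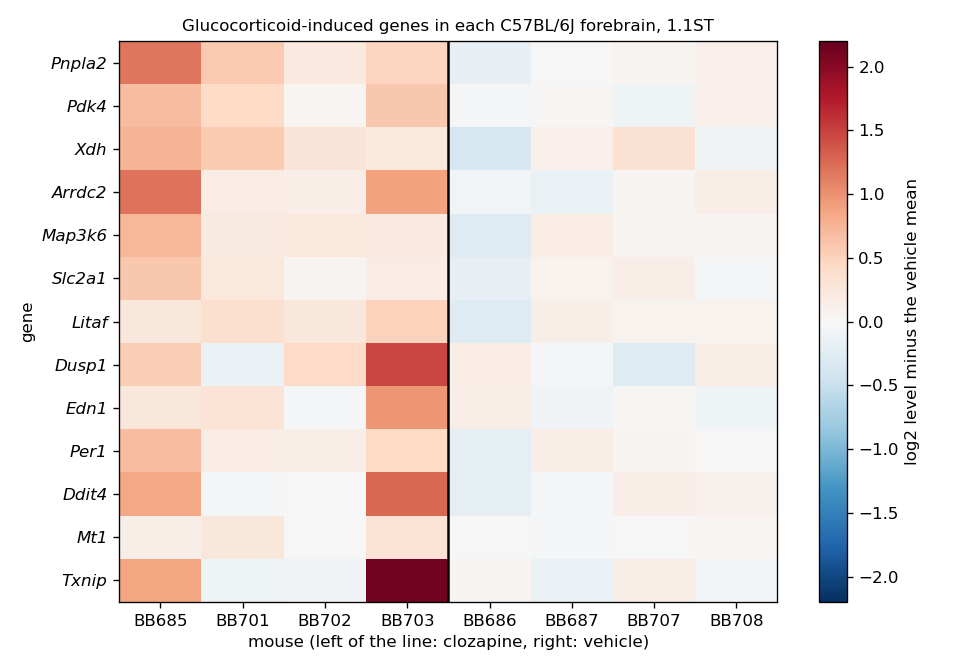
Log2 level minus the mean of the 4 vehicle mice on 1.1ST arrays, in colour, for the 13 glucocorticoid-induced genes with an unadjusted p below 0.05, one row per gene and one column per mouse, with clozapine mice left of the line and vehicle mice right of it. Columns BB685 and BB703 hold most of the large values, up to 2.12 for Txnip in BB703, and BB701 and BB702 lie closer to the vehicle mice for most genes.

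The promoters of this list were searched for the palindrome that the glucocorticoid receptor binds. The motif was GNACA and TGTNC with 3 free bases between them, which reads the same on both strands, and the window was the RefSeq sequence of GRCm38.p6 from 250 bases before to 50 after each start. It was found in 5 of 40 genes of the list with a promoter in that table (12.5%), in 145 of 27025 genes in all (0.537%), and in 0 of 12 choroid plexus, 0 of 14 oligodendrocyte and 0 of 19 striatal genes. At the share over all genes, lists of 12 to 19 genes would seldom hold a match, so these counts of 0 set no contrast. The glucocorticoid list was chosen for genes known to be induced by the hormone, so its share is no independent result. The 5 matches are shown because the genes beside them had unlike values, and the capitals mark the motif.
Map3k6, chr4:133240623-133240663, plus strand: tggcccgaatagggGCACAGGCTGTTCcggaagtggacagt
Mt1, chr8:94178981-94179021, plus strand: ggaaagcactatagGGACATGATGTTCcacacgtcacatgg
Txnip, chr3:96557771-96557811, plus strand: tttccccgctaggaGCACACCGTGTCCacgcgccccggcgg
Sgk1, chr10:21993688-21993728, plus strand: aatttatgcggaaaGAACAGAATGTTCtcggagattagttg
Fam107a, chr14:8309871-8309911, minus strand: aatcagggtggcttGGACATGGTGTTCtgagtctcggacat
The differences of these genes were 0.34 ± 0.13 for Map3k6, 0.18 ± 0.08 for the metallothionein Mt1, 0.70 ± 0.34 for Txnip, 0.24 ± 0.20 for the kinase Sgk1 and 0.03 ± 0.08 for the actin-associated protein Fam107a. A match describes the sequence and does not show that the receptor was bound there.

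Genes of insulin, FOXO and fasting responses had 8 higher and 1 lower of 32, with a median of 0.12. Of the 8 higher members, 5 stand in the glucocorticoid list too, namely Pnpla2, Pdk4, Arrdc2, Ddit4 and Txnip, and the others were Foxo1, Arrdc4 (0.23) and the insulin-regulated glucose transporter Slc2a4 (0.29). Foxo1, the transcription factor that insulin holds out of the nucleus, read 8.77, 8.67, 8.54 and 8.97 in clozapine mice, against 8.25, 8.51, 8.46 and 8.30 in vehicle mice. Foxo1 did not overlap on either format (0.36 ± 0.11 and 0.31 ± 0.10). Igf1, the growth factor whose receptor feeds this pathway, read 7.13, 6.92, 6.95 and 6.96 in clozapine mice, against 7.21, 7.25, 7.25 and 7.17 in vehicle mice, and was the 1 lower member, at -0.23.

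Immediate early genes, the first genes that neurons switch on with activity, had 4 higher of 39 (Maff, Dusp1, Btg2 and Per1) and 0 lower, with a median of 0.03. Dusp1 and Per1 stand in the glucocorticoid list too. Heat shock and unfolded protein genes had 0 higher and 5 lower of 25, with a median of -0.06. The 5 were Creld2 (-0.24), the chaperone Hsp90aa1 (-0.11), the stress transcription factors Atf4 (-0.16) and Xbp1 (-0.18), and the cochaperone Dnajb1 (-0.18). Vehicle mouse BB686 was the highest of all 8 mice for each of these 5 genes. On 1.0ST their differences ran from -0.12 for Creld2 and Atf4 to -0.07 for Hsp90aa1, and 1 gene of the list was lower. Neuropeptide genes had 0 higher and 1 lower of 23 (4.35% lower, against 2.66% of all genes), with a median of -0.05. The 1 lower member was Adcyap1, which encodes the neuropeptide PACAP. Adcyap1 read 7.62, 7.81, 8.05 and 7.90 in clozapine mice, against 8.47, 8.11, 8.09 and 8.23 in vehicle mice, a difference of -0.38 ± 0.13.

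Lists of sterol synthesis genes had 0 higher and 0 lower of 20, p53 targets 3 higher and 0 lower of 27, and inflammatory and interferon-induced genes 0 and 0 of 29. Ddit4 was among the higher p53 targets and stands in the glucocorticoid and FOXO lists too. Markers of other cells and regions were read for comparison. Astrocyte genes had 1 higher of 19 and a median of 0.04, microglial genes 0 of 16 and 0.04, endothelial and mural genes 1 of 21 and 0.07, and meningeal genes 1 of 14 and 0.05. The 1 higher meningeal gene was Igf2, which stands in the choroid plexus list too. Cortical projection neuron genes had 0 called of 18 and a median of -0.04, olfactory bulb genes 0 of 15 and -0.13, and thalamic and hypothalamic genes 0 of 21 and 0.01. The summed level of cortical genes was 21800 in BB685, 22040 in BB701, 20460 in BB702 and 18350 in BB703, against 20140 to 21880 in vehicle mice, and that of olfactory bulb genes 6390 to 6778 in clozapine mice and 5649 to 8512 in vehicle mice. Brainstem neuron genes had 1 higher and 0 lower of 23 and a median of 0.02, and they summed to 1296 to 1603 in clozapine mice and 1148 to 1664 in vehicle mice. Transcripts were also ordered by the hindbrain minus forebrain difference of vehicle NOD/ShiLtJ mice, whose arrays enter none of the differences above. Among 358 transcripts over 1 unit higher in hindbrain the median difference between treatments was 0.09, with 20 higher and 2 lower, and among 1453 transcripts 0.5 to 1 unit higher in hindbrain it was 0.05, with 110 higher and 6 lower. Among the 24923 transcripts within 0.5 units it was -0.02, with 501 higher and 942 lower. On the forebrain side, 1064 transcripts 0.5 to 1 unit higher in forebrain had a median of -0.02, with 32 higher and 21 lower, and 512 over 1 unit higher in forebrain had a median of -0.0098, with 23 higher and 5 lower. The line of the forebrain dissection was not recorded per mouse, and its part in these values was not tested.

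**Figure D4:**
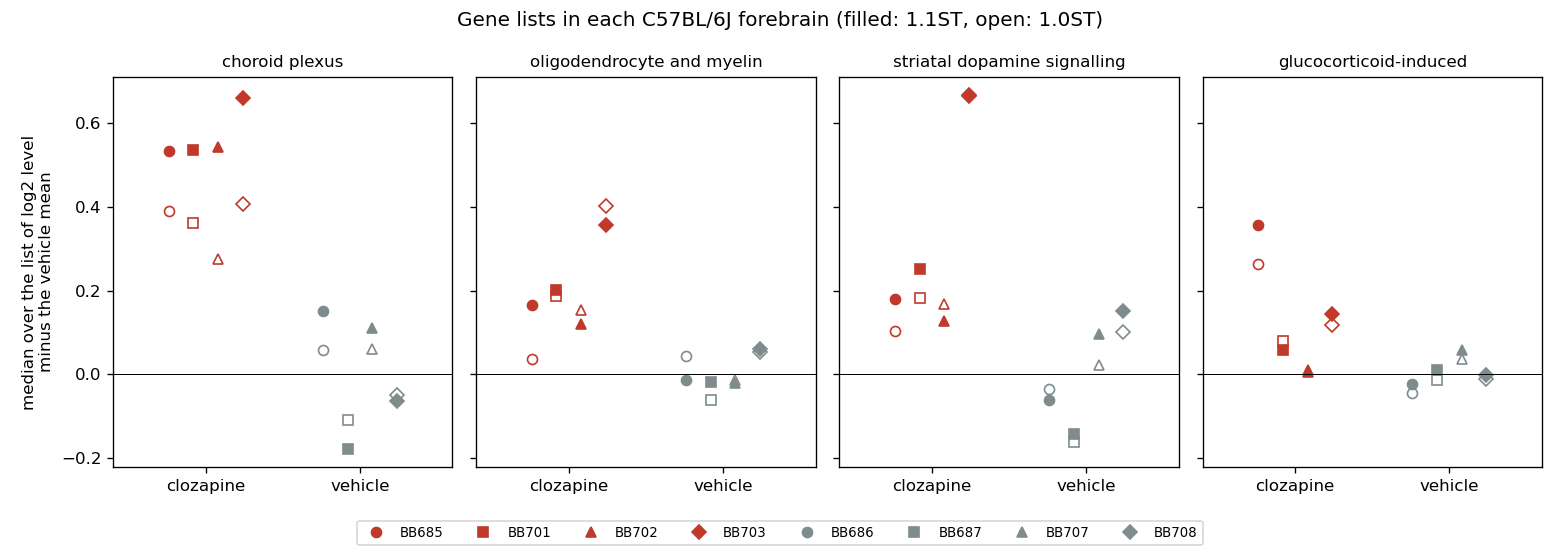
Median over each gene list of the log2 level minus the mean of the 4 vehicle mice, y axis, for each clozapine mouse, left, and each vehicle mouse, right, with filled symbols for 1.1ST and open symbols for 1.0ST. All 4 clozapine mice stand between 0.53 and 0.66 for choroid plexus genes on 1.1ST, BB703 stands highest for striatal and oligodendrocyte genes, and BB685 for glucocorticoid-induced genes.

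The response was then set beside those of NOD/ShiLtJ forebrain and of hindbrain and whole brain of the same C57BL/6J mice, to ask where it differed. No transcript passed the FDR threshold in any of the 3 limma contrasts of differences, and without clozapine mouse BB685 1 did in the contrast with NOD/ShiLtJ forebrain. At an unadjusted p below 0.05, 2102 transcripts differed from NOD/ShiLtJ forebrain (7.42%), 1106 from hindbrain (3.91%) and 916 from whole brain (3.24%). Among genes with 1 symbol the difference was larger in C57BL/6J forebrain at that p for 819 against NOD/ShiLtJ forebrain (4.35%), for 387 against hindbrain (2.06%) and for 410 against whole brain (2.18%).

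Striatal genes had medians of opposite sign in the strains. Their median difference between treatments was 0.30 in C57BL/6J forebrain, against -0.22 in NOD/ShiLtJ forebrain, and 11 of 25 members had a larger value in C57BL/6J at an unadjusted p below 0.05, with 0 smaller. For Drd2 it was 0.59 ± 0.18 in C57BL/6J and -0.30 ± 0.18 in NOD/ShiLtJ (contrast of differences in limma, FDR = 0.449), and for Rasgrp2 0.34 in C57BL/6J and -0.33 in NOD/ShiLtJ (FDR = 0.392). In C57BL/6J hindbrain and whole brain the striatal medians were 0.22 and 0.24.

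Choroid plexus genes had a median of 0.57 in C57BL/6J forebrain, against -0.12 in NOD/ShiLtJ forebrain, -0.14 in C57BL/6J hindbrain and 0.16 in C57BL/6J whole brain, which is the other hemisphere of the same mice. Of 16 genes 7 had a larger value than in NOD/ShiLtJ forebrain, 7 than in hindbrain and 1 than in whole brain. For Otx2 the difference between treatments was 1.19 in C57BL/6J forebrain, against 0.07, -0.03 and 0.08 in NOD/ShiLtJ forebrain, hindbrain and whole brain (contrast of differences in limma, FDR = 0.512, 1 and 1). Oligodendrocyte genes had 0.21 in C57BL/6J forebrain, against -0.07, -0.09 and -0.04 in those 3 groups, with 5, 8 and 3 of 20 members larger in C57BL/6J forebrain. Other lists differed from NOD/ShiLtJ forebrain too. Endothelial and mural genes had 0.07 in C57BL/6J and -0.22 in NOD/ShiLtJ forebrain, with 9 of 21 members larger in C57BL/6J and 0 smaller. Olfactory bulb genes had -0.13 and 0.22, with 0 of 15 larger and 5 smaller.

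Glucocorticoid-induced genes had medians above 0 in all 4 groups. Their median was 0.17 in C57BL/6J forebrain, against 0.23, 0.10 and 0.13 in NOD/ShiLtJ forebrain, C57BL/6J hindbrain and C57BL/6J whole brain. The counts of higher members were 13 in C57BL/6J forebrain and 25 in NOD/ShiLtJ forebrain of 46, against 576 of 18807 genes in NOD/ShiLtJ forebrain (3.06%), and the contrast of differences between these had 2 larger and 2 smaller members. In C57BL/6J hindbrain 3 members were higher and 1 lower, against 250 genes higher in all (1.33%), and the contrast had 4 larger and 0 smaller members. In C57BL/6J whole brain 10 were higher and 0 lower, against 268 genes higher in all (1.43%), and the contrast had 1 larger and 0 smaller. A set of 11 genes was taken up because earlier results of these data named them for clozapine, among them Cdkn1a, the cell cycle inhibitor p21. Cdkn1a read 9.58, 8.70, 8.60 and 8.90 in clozapine mice, against 8.62, 8.67, 8.67 and 8.50 in vehicle mice. Its difference was 0.33 ± 0.22 in C57BL/6J forebrain, against 0.80, 0.71 and 0.60 in the other 3 groups, and the contrasts of differences in limma had p of 0.134, 0.214 and 0.365. Other genes of that set had differences of 0.24 for Trp53inp1 (against 0.79 in NOD/ShiLtJ forebrain), 0.26 for Tma16, 0.51 for the acrosin gene Acr, 0.17 for the intermediate filament gene Synm and -0.06 for Nrp1, beside Arrdc2, Per1, Map3k6 and Pnpla2 given above. For Trp53inp1 the limma contrast of differences with NOD/ShiLtJ forebrain had an unadjusted p of 0.00603 (FDR = 0.487).

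**Figure D5:**
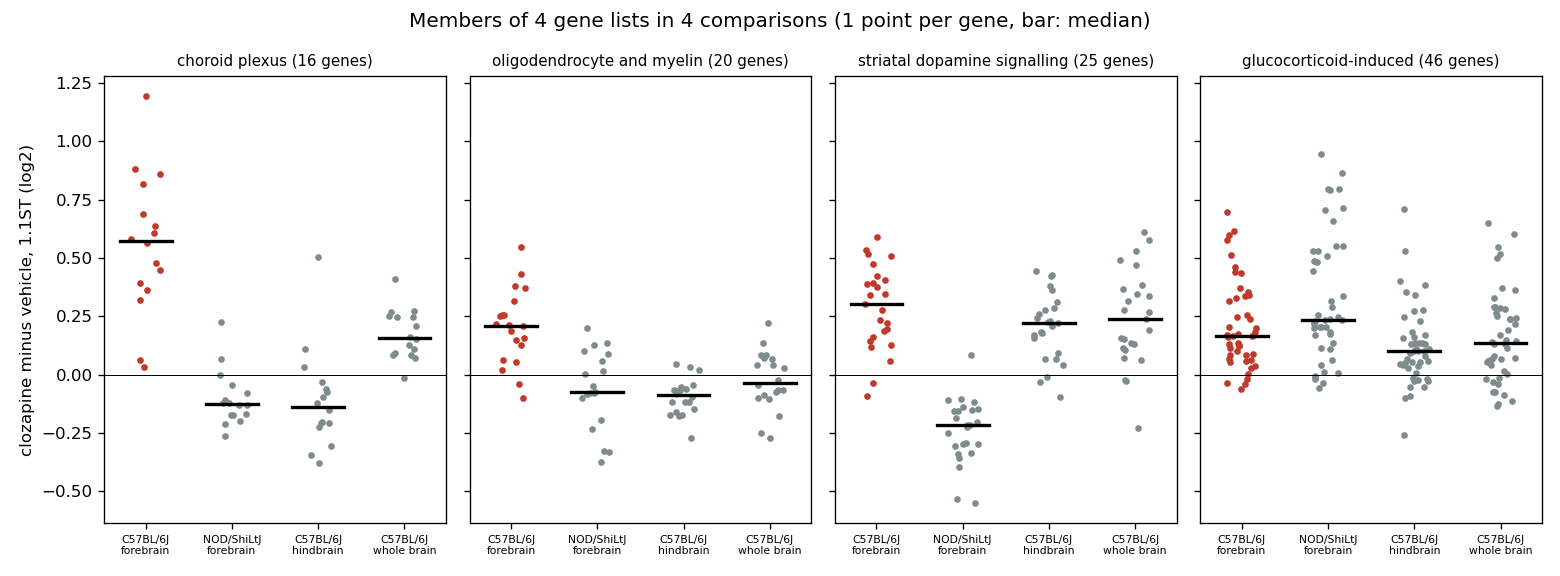
Difference between clozapine and vehicle (log2, 1.1ST) of each member of 4 gene lists, y axis, in C57BL/6J forebrain, NOD/ShiLtJ forebrain, C57BL/6J hindbrain and C57BL/6J whole brain. Points are genes and bars are medians. Striatal genes lie mostly above 0 in the 3 C57BL/6J groups and mostly below 0 in NOD/ShiLtJ forebrain, while glucocorticoid-induced genes lie mostly above 0 in all 4.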

How the data were processed

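The authors hybridized each RNA sample to both array formats, summarized transcript clusters in Affymetrix Expression Console 1.1 by median polish with sketch-quantile normalization, and left out control transcripts. The deposited values are log2 expression levels, and probe intensities were not used here. All 48 arrays of a format entered 1 limma fit (limma 3.58.1, statmod 1.5.0, R 4.3.3) that estimated the means of the 12 combinations of strain, region and treatment, with mouse as a random block (consensus correlation 0.0295 on 1.1ST). The 8 forebrain arrays enter the difference, and the other groups add to the estimate of spread. The FDR followed the formula of the methods. Gene symbols came from the platform annotation, by which 21207 clusters had 1 gene, 1867 several and 5236 none. Named genes were the 15 with the smallest p and the 5 largest non-overlapping differences in each direction, 11 genes named in earlier results, and list members; 1 of them is not reported here. Members and lists were chosen with earlier results of these data known. Array batch and hemisphere are not in the labels. The scripts were tested on simulated data. Alternatives changed the format, samples, block, FDR formula, filter, normalization, surrogate variables, covariates and variance trend, and left out each mouse. Replicates are separate mice, and their number limits the precision.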

Additional observations from a re-analysis of the deposited data

Results flagged for a closer look

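In 268 groups of 4 mice, 13 (4.85%) held a mouse standing apart from the other 3 by Dixon's criterion, which chance gives in about 1 group of 20. Vehicle mouse BB686 accounted for 5 of them and clozapine mouse BB703 for 3. Among clozapine mice, BB703 was high for Pld5 (8.3624, against 7.89 to 7.91 in the others), Mal (10.5898, against 10.29 to 10.33) and F5 (5.8148, against 5.69 to 5.70). Clozapine mouse BB685 was high for Map3k6 (6.7336, against 6.19 to 6.23) and BB701 for Iqca1l (4.6983, against 4.40 to 4.44). Clozapine mouse BB702 was high for Gfi1 (4.5873, against 4.39 to 4.42) and low for the summed fatty acid synthesis genes (17050, against 17740 to 17870). Vehicle mouse BB686 was high for Trp53inp1 (8.2836, against 8.00 to 8.03), Creld2 (8.8276, against 8.49 to 8.55) and Xbp1 (10.926, against 10.58 to 10.63). The same mouse was low for Litaf (7.3714, against 7.73 to 7.78) and Olig1 (8.7726, against 9.08 to 9.12). Vehicle mouse BB707 was low for the summed inflammatory and interferon-induced genes (4421, against 4649 to 4692).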

How the results depend on the processing

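The main fit gave 686 higher and 976 lower transcripts at an unadjusted p below 0.05, and the 1.0ST arrays gave 435 and 314. Keeping only transcripts with a mean above 5 gave 579 higher and 421 lower. Quantile normalization gave 876 and 813, and centring each array on its median gave 508 and 1322. The side with more transcripts thus depended on the processing. With 5 surrogate variables 4 transcripts were called higher and 1 lower, and 1079 and 1472 were higher and lower at the unadjusted p. Without the mouse as a replicate block 0 were called in either direction, and 683 were higher and 977 lower. The median of the choroid plexus genes was 0.37 on 1.0ST, 0.44 for the mean of both formats, 0.50 with surrogate variables and 0.48 with the hour of kill as a covariate. Leaving out 1 mouse at a time gave 0 to 1 transcripts called higher (Stra6 without BB701), 0 to 1 called lower (Ide without BB708), 565 to 931 higher and 678 to 1198 lower at the unadjusted p, 0 to 1 differing from NOD/ShiLtJ forebrain (1 without BB685), and a choroid plexus median of 0.51 to 0.61. The list values and their alternatives were added after the data were seen. Of 2225 values for 102 genes under 22 settings, 2211 kept their direction and side of the threshold, 6 passed it and 8 turned sign. All 8 were on 1.0ST, namely Oosp1 (-0.034), 1700018F24Rik (0.094), Tex22 (0.078), Dppa5a (0.031), Ankrd36 (0.042), Muc13 (0.022), Odf3 (0.033) and Ffar1 (0.033), and the cause was not tested. Settings that changed only the FDR formula, the block or the variance trend left each difference as it was, so no sign could turn there. The genes were also largely chosen by their p or difference in the main fit, so the count of kept values is no measure of robustness. The alternative with control rows was not run, because the value table used here holds the analysed clusters alone. With 4 mice a group, differences under 0.189 lie inside the median 95% interval.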
